A study of Rattus norvegicus with 6 samples.

Results

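Beta-catenin, its cadherin and catenin partners at the adherens junction, and the kinase and scaffolds that control its turnover were described at the RNA level in cultured spinal cord neurons in which GAL3 had been silenced. The 10 members were CTNNB1, CTNNA1, CTNNA2, CTNND1, CTNND2, CDH2, CDH11, APC, GSK3B and AXIN2. They were taken by gene symbol from the 17648 genes of the expression matrix, and all 10 were listed. The cultures came from spinal cords of neonatal Sprague-Dawley rats and received Ara-C at 0.05 mg/mL to limit dividing cells. RNA of 6 libraries was sequenced, 3 from neurons transfected with a control small interfering RNA (siR-Con) and 3 from neurons transfected with an siRNA against GAL3 (siR-GAL3). The injury model was set up after 3 days of culture, with 10 μM glutamate for 1 h followed by 16 h in medium without glutamate. The study describes both groups as glutamate-treated, whereas the sample labels give saline for siR-Con, so glutamate cannot be told apart from the siRNA if those labels are right. The design text of the series calls these neurons knocked out, whereas a small interfering RNA was used. The values compared here are expression values derived from FPKM, a unit that divides fragments by transcript length and sequencing depth. The authors altered them further by steps whose tools are not given, so levels set side by side between genes are approximate. Nothing in the labels ties the libraries to separate litters or cultures. The authors corrected differences within groups before depositing the values. The p-values, SDs and overlaps given here thus rest on the spread left after that correction, which may be narrower than that between the cultures.

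Beta-catenin works in 2 places. At the adherens junction it links the tail of a classical cadherin, such as N-cadherin, to alpha-catenin and through it to actin, while p120-catenin holds the cadherin at the membrane. In the cytoplasm, free beta-catenin is bound by the scaffolds APC and axin, phosphorylated by casein kinase 1 and GSK3 and then degraded. A Wnt ligand stops this destruction, and beta-catenin enters the nucleus and acts with TCF/LEF factors on target genes, among them AXIN2, which feeds back to restore the destruction complex. In neurons these proteins are known for synapse adhesion, dendrite growth and axon guidance.

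Values of the 3 libraries of a group are given in the order of their replicate numbers. LGALS3, the gene of GAL3, was 77.4, 54.4 and 62.4 with siR-Con and -1.64, 32.3 and 18.5 with siR-GAL3. Values below 0 are left by the correction the authors applied, and no member had one. The sequencing depth of the libraries is unknown. siR-GAL3 replicate 2 stood apart on the first principal component, which held 65.2% of the variance, and was the lowest of the 6 libraries for 35.1% of all genes tested. Exactly equal values divided the libraries into 3 sets. siR-Con replicate 1 and siR-GAL3 replicate 1 formed the first, the second held siR-GAL3 replicate 3 with the remaining siR-Con libraries, and siR-GAL3 replicate 2 was alone. Of 11 neuron markers in the matrix, 7 had a mean of at least 1. MAP2 lay between 13.1 and 19.0, ELAVL3 between 7.81 and 11.02, GAP43 between 7.52 and 10.7 and TUBB3 between 4.03 and 5.19. The other 4 had a lower mean, among them RBFOX3, the gene of NeuN, between 0.300 and 0.429, and NEFL, between 0.266 and 0.459. GAP43, TUBB3, RBFOX3 and NEFL were named after their values were seen. Markers of other cells were more abundant, GFAP of astrocytes at 515 to 758 and MBP of oligodendrocytes at 629 to 919. The libraries thus held much RNA of glial genes.

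All 10 members had a lower mean in siR-GAL3 than in siR-Con, by 4.48% for CDH2 at the least and by 21.2% for APC at the most. In 4 of them, CTNNB1, CTNND2, CDH11 and AXIN2, the groups did not overlap. Of the 9 members with a mean of at least 1, which could be tested, 3 were lower without overlap, against 10.3% of the 8495 genes tested. No member reached a Benjamini-Hochberg adjusted p under 0.05 in limma, and neither did any other gene (0% called). The adjusted p of the members lay between 0.356 and 0.776. An unadjusted p under 0.05 was found in limma for 2 of the 9 members, CTNND2 and CTNNB1, both lower, against 4.25% of all genes tested that were lower, 4.41% that were higher and 736 genes in all. The members were chosen with earlier results of these data known, so these counts are no independent test of them. The median log2 fold change of the 9 members was -0.17 and that of all genes tested was 0.00. All log2 fold changes are of the value + 1, which understates the change of low genes, and no member had a log2 fold change beyond 1 with an unadjusted p under 0.05, against 0.318% of all genes tested.

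**Figure D1:**
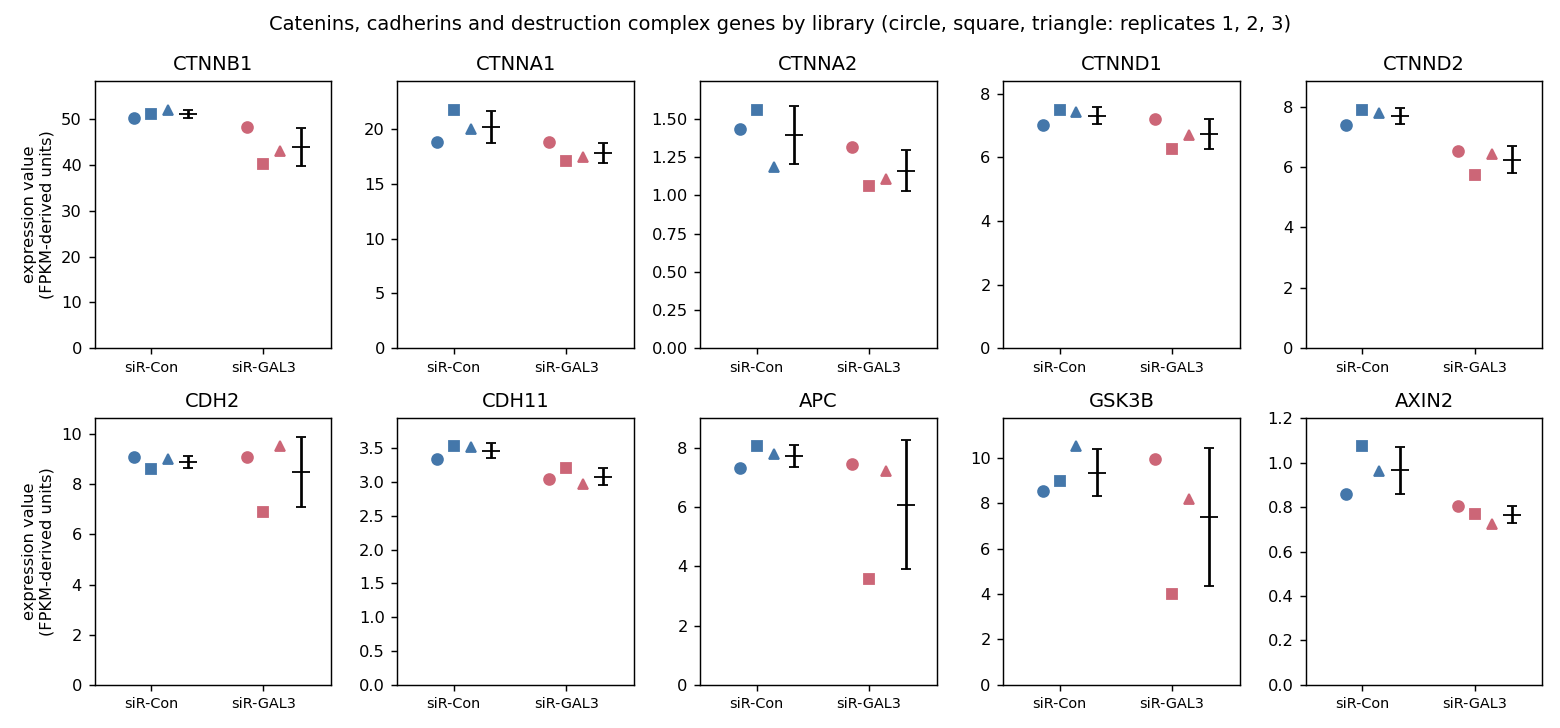
Expression value (FPKM-derived units, axis from 0) of each of the 10 members in the 3 siR-Con and 3 siR-GAL3 libraries, with the mean and SD of each group in black. CTNNB1, CTNND2, CDH11 and AXIN2 did not overlap between the groups, while APC and GSK3B were lowest in siR-GAL3 replicate 2, at 3.57 and 4.03.

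Of the 9 members tested, 8 had their lowest value in siR-GAL3 replicate 2, against the 35.1% given above for all genes. That library had the highest LGALS3 value of its group, 32.3, while siR-GAL3 replicate 1 had the lowest, -1.64. The relation of the members to the LGALS3 level was not tested. With siR-GAL3 replicate 2 left out, 8 of the 9 members still had a log2 fold change below 0, against 51.1% of all genes tested. The median of the members was then -0.11. An unadjusted p under 0.05 was then found in limma for 3 members, CTNND2, CTNNB1 and CDH11, all lower, against 9.36% of all genes tested that were lower. No adjusted p was under 0.05 among the members in this fit, against 1.97% of all genes tested. With the library set as a block in limma, the same 3 members had an unadjusted p under 0.05, all lower, against 7.9% of all genes tested that were lower. No member then had an adjusted p under 0.05, against 1.25% of all genes tested. Since siR-GAL3 replicate 2 is alone in its set, the block takes up its value and it adds nothing to the group difference. The blocked fit is therefore no separate check from the fit without siR-GAL3 replicate 2. Within each of the 2 library sets that held both groups, 5 members were lower in siR-GAL3, namely CTNNB1, CTNNA2, CTNND2, CDH11 and AXIN2. Of the 9 tested, 4 were among these, against 23% of all genes tested.

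CDH2, N-cadherin, is the main classical cadherin of neurons and neural progenitors. It was 9.08, 8.62 and 9.01 with siR-Con and 9.09, 6.90 and 9.52 with siR-GAL3. The groups overlapped, and only siR-GAL3 replicate 2 was below the siR-Con libraries. The log2 fold change was -0.07 (standard error 0.11, limma adjusted p = 0.776), and it turned to 0.06 without siR-GAL3 replicate 2. N-cadherin RNA was thus not shown to differ between the groups.

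CDH11 encodes cadherin-11, a classical cadherin known from mesenchymal cells and meninges and also made in the developing nervous system. It was 3.34, 3.53 and 3.52 with siR-Con and 3.05, 3.21 and 2.97 with siR-GAL3. All siR-GAL3 libraries were lower, and siR-GAL3 replicate 2 was the highest of them. The mean was 3.46 ± 0.109 in siR-Con and 3.08 ± 0.125 in siR-GAL3 (SD, n = 3 each), and the log2 fold change was -0.13 (standard error 0.06, limma unadjusted p = 0.0756, adjusted p = 0.585). Without siR-GAL3 replicate 2 the log2 fold change was -0.15 (limma unadjusted p = 0.0131, adjusted p = 0.176). Fibroblast and meningeal markers also lay lower. Of 8 tested, 7 were lower in siR-GAL3, against 50% of all genes tested. In limma 4 of the 7 had an unadjusted p under 0.05, against 4.25% of all genes tested that were lower. Without overlap, 5 of the 8 were lower, against 10.3% of all genes tested. The median log2 fold change of the 8 was -0.39, and -0.25 without siR-GAL3 replicate 2. The summed level of these markers was 71.8 to 81.2 in siR-Con and 48.0 to 65.4 in siR-GAL3. COL1A1 and COL3A1, the most abundant of them, were 26.5% and 30.9% lower, and the part of these markers in the CDH11 result was not tested. In RNA of whole cultures, fewer cells of a type and less RNA per cell cannot be told apart.

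CTNNA1, alpha-E-catenin, and CTNNA2, alpha-N-catenin, bind beta-catenin and carry its link to actin, the latter mainly in neurons. CTNNA1 was 18.9, 21.8 and 20.04 with siR-Con and 18.9, 17.1 and 17.5 with siR-GAL3. siR-Con replicate 1 and siR-GAL3 replicate 1, which belong to the same library set, were listed at exactly the same value, so the groups touched and the difference rested on the other libraries. Its log2 fold change was -0.17 (standard error 0.08, limma unadjusted p = 0.0661, adjusted p = 0.584). CTNNA2 was 1.43, 1.56 and 1.19 with siR-Con and 1.32, 1.06 and 1.10 with siR-GAL3. siR-Con replicate 3 lay below siR-GAL3 replicate 1, and the log2 fold change was -0.15 (standard error 0.08, limma adjusted p = 0.590). The neuronal form was the lesser one throughout, at 0.0689 ± 0.00870 times CTNNA1 in siR-Con and 0.0650 ± 0.00417 times CTNNA1 in siR-GAL3 (SD, n = 3 each). This ratio did not differ beyond its spread (difference of the log2 ratio -0.08, exact permutation test, two-sided p = 0.6).

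CTNND1, p120-catenin, and CTNND2, delta-catenin, bind the cadherin tail next to the membrane, and CTNND2 is known as a neural member of the family found at synapses. CTNND1 was 7.03, 7.50 and 7.42 with siR-Con and 7.21, 6.28 and 6.71 with siR-GAL3. siR-GAL3 replicate 1 lay above siR-Con replicate 1, and the log2 fold change of -0.11 (standard error 0.07, limma adjusted p = 0.611) did not pass the test. CTNND2 was 7.41, 7.90 and 7.78 with siR-Con and 6.55, 5.74 and 6.45 with siR-GAL3. Each siR-GAL3 library was below each siR-Con library, also within both library sets. Its mean was 7.70 ± 0.257 in siR-Con and 6.24 ± 0.441 in siR-GAL3 (SD, n = 3 each), 18.9% lower. CTNND2 had the smallest p of the members, with a log2 fold change of -0.27 (standard error 0.07, limma unadjusted p = 0.00825, adjusted p = 0.356). Without siR-GAL3 replicate 2 the log2 fold change was -0.21 (limma unadjusted p = 0.00272, adjusted p = 0.0838), which was the lowest adjusted p of any member in any fit.

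The ratio of CTNND2 to CTNND1 within a library is free of any factor that scales the whole library. It was 1.05 in each of the 3 siR-Con libraries and 0.908, 0.913 and 0.961 with siR-GAL3. CTNND2 was above CTNND1 in the siR-Con libraries and below it in the siR-GAL3 libraries, without overlap. The difference of the log2 ratio was -0.18 (two-sided exact permutation p = 0.1, below which 3 against 3 libraries cannot go, and 0.3 adjusted over the 3 ratios compared), and it was -0.17 without siR-GAL3 replicate 2. The ratio of CDH2 to CDH11 was 2.72, 2.44 and 2.56 with siR-Con and 2.98, 2.15 and 3.21 with siR-GAL3, and it overlapped (exact permutation test, two-sided p = 0.7). CTNND2 is a gene of neural cells, and neuron and astrocyte markers were set beside it. The summed neuron markers were 41.4 to 46.3 in siR-Con and 42.7 to 47.2 in siR-GAL3. Of the 7 tested, 5 were higher, 1 of them at an unadjusted p under 0.05 in limma, against 4.41% of all genes tested. Without overlap, 3 of the 7 were higher, against 10.3% of all genes tested. The median log2 fold change of the 7 was 0.15, and 0.07 without siR-GAL3 replicate 2. The most abundant, MAP2 and ELAVL3, had log2 fold changes of -0.09 and 0.04 (limma adjusted p = 0.758 and 0.872), and MAP2 turned to 0.05 without siR-GAL3 replicate 2. The summed astrocyte markers were 1158 to 1286 in siR-Con and 985 to 1084 in siR-GAL3. Of the 10 genes, 8 were lower, 4 of them at an unadjusted p under 0.05 in limma, against 4.25% of all genes tested. Without overlap, 3 of the 10 were lower, against 10.3% of all genes tested. GFAP alone made up a large part of the sums, at 571 to 758 in siR-Con and 515 to 533 in siR-GAL3. The most abundant, GFAP and FABP7, had log2 fold changes of -0.31 and -0.02 (limma adjusted p = 0.510 and 0.9505). The part of these markers in the CTNND2 result was not tested.

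**Figure D2:**
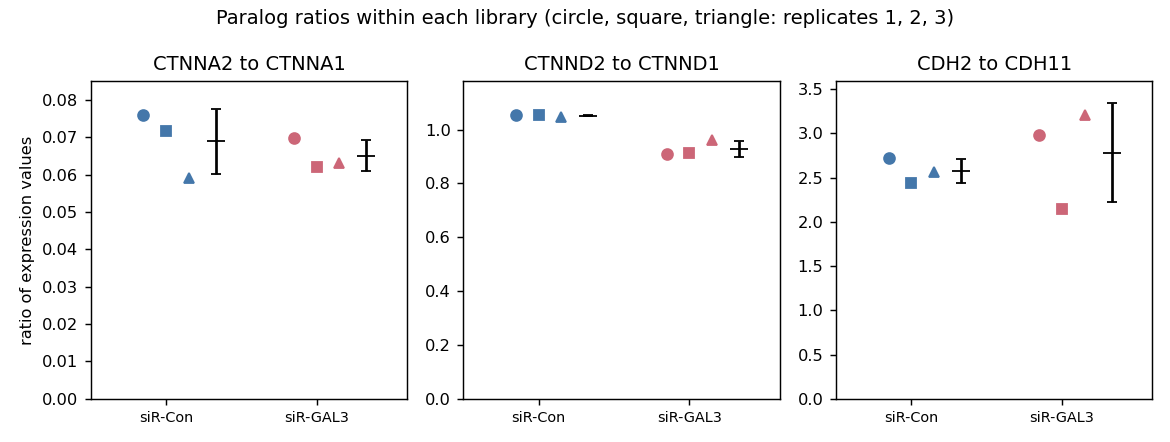
Ratio of the expression values of CTNNA2 to CTNNA1, CTNND2 to CTNND1 and CDH2 to CDH11 in each library (axes from 0), with the mean and SD of each group in black. CTNND2 to CTNND1 was 1.05 in the siR-Con libraries and 0.908 to 0.961 in the siR-GAL3 libraries, while the other ratios overlapped.

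CTNNB1, beta-catenin, was the most abundant member. It was 50.3, 51.2 and 52.1 with siR-Con and 48.4, 40.3 and 43.2 with siR-GAL3. The groups did not overlap, and siR-GAL3 replicate 1 was the nearest to the controls. The log2 fold change was -0.22 (standard error 0.08, limma unadjusted p = 0.0341, adjusted p = 0.535). It was -0.16 without siR-GAL3 replicate 2 (limma unadjusted p = 0.0359, adjusted p = 0.268). A fit blocked by library set, in which that replicate adds nothing to the group difference either, gave -0.17. RNA was measured and not protein, so nothing is said of beta-catenin turnover.

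The order of the levels in siR-Con was CTNNB1, CTNNA1, GSK3B, CDH2, APC, CTNND2, CTNND1, CDH11, CTNNA2 and AXIN2. Beta-catenin at 51.2 ± 0.933 and CTNNA1 at 20.2 ± 1.47 (SD, n = 3 each) lay above all other members in every library. The siR-Con ranges of GSK3B and CDH2 overlapped, as did those of APC and CTNND2, so these neighbours do not differ beyond their spread. The ranges of CTNND2 and CTNND1 overlapped as well, although CTNND2 was the higher within each siR-Con library. CDH11 was below CTNND1 and above CTNNA2 in all 6 libraries. CTNNA2 and AXIN2 did not overlap in siR-Con but did when all 6 libraries were taken.

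APC, the large scaffold that also binds microtubule ends, was 7.32, 8.06 and 7.79 with siR-Con and 7.46, 3.57 and 7.23 with siR-GAL3. A single library set most of the difference, since siR-GAL3 replicate 2 was at 48.6% of the mean of the other siR-GAL3 libraries. The log2 fold change was -0.35 (standard error 0.23, limma adjusted p = 0.607) and -0.06 without that library. GSK3B, the kinase that phosphorylates beta-catenin among many substrates, was 8.56, 8.98 and 10.5 with siR-Con and 9.97, 4.03 and 8.18 with siR-GAL3. Again siR-GAL3 replicate 2 stood lowest, at 44.3% of the mean of the other siR-GAL3 libraries. Its log2 fold change of -0.37 (standard error 0.27, limma adjusted p = 0.622) was the largest in size among the 9 members, and without siR-GAL3 replicate 2 it was -0.04. Within the first library set, siR-GAL3 replicate 1 was above siR-Con replicate 1 for both genes. siR-GAL3 replicate 3 was below all 3 siR-Con libraries for both, at 7.23 for APC and 8.18 for GSK3B.

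**Figure D3:**
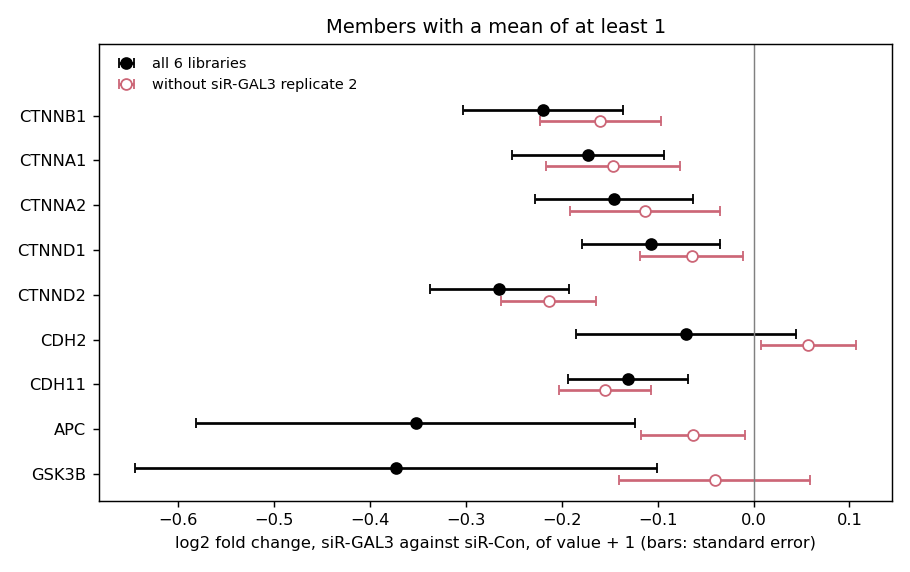
Log2 fold change (siR-GAL3 against siR-Con, of value + 1) with its standard error in limma for the 9 members tested, over all 6 libraries (filled) and without siR-GAL3 replicate 2 (open). APC moved from -0.35 to -0.06, GSK3B from -0.37 to -0.04 and CDH2 from -0.07 to 0.06, while CTNND2 moved from -0.27 to -0.21.

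AXIN2, the inducible axin, is both a scaffold of the destruction complex and a target of beta-catenin with TCF/LEF factors. The stretch of its promoter that holds matches to the TCF/LEF core is shown because AXIN2 is the member whose RNA is used as a readout of the pathway. The sequence is that of RefSeq on GRCr8, chr10:94398535-94398684, plus strand, from 250 to 101 bases before the annotated start, with the matches to CTTTGAA and CTTTGAT in capitals.
AXIN2: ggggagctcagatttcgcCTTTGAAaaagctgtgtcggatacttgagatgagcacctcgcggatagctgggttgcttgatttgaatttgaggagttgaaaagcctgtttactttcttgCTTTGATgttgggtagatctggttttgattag

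Both motifs were searched on both strands from 250 bases before to 50 after the start. Either was present in 8.73% of 33469 promoters, and 0.571% held at least 2 matches, as AXIN2 did. Of the 7 members with a promoter entry, AXIN2 was the only one with a match. Of 13 promoters of the target gene list, 5 held one, among them NKD1, a feedback inhibitor of Wnt signalling, and SP5, a transcription factor. Their stretches of 47 bases are given for comparison, NKD1 from chr19:34722961-34723007 on the minus strand and SP5 from chr3:75682553-75682599 on the plus strand of GRCr8.
NKD1: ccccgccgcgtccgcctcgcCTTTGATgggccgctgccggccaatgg
SP5: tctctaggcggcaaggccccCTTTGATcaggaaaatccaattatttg
These letters describe the windows and show no binding.

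AXIN2 was the lowest member, at 0.861, 1.07 and 0.961 with siR-Con and 0.804, 0.768 and 0.726 with siR-GAL3. The groups did not overlap, and siR-GAL3 replicate 2 was in the middle of its group. The mean was 0.965 ± 0.106 in siR-Con and 0.766 ± 0.0392 in siR-GAL3 (SD, n = 3 each), 20.6% lower, and the two-sided exact permutation test gave p = 0.1. Its mean over all libraries was under 1, so it was not in the main fit. In limma with no filter on low values the log2 fold change was -0.15 (unadjusted p = 0.0416, adjusted p = 0.510). In that fit 5 members, all lower, had an unadjusted p under 0.05, against 4.17% of 17648 genes that were lower. NKD1, which shares the CTTTGAT match, was 2.53, 3.19 and 2.87 with siR-Con and 2.38, 2.48 and 2.38 with siR-GAL3. It too was lower without overlap (log2 fold change -0.18, limma unadjusted p = 0.0624, adjusted p = 0.577). The groups overlapped for the other targets with a match that were in the matrix. TCF7 was at 0.523 to 0.693 in siR-Con and 0.452 to 0.537 in siR-GAL3, and CD44 at 16.5 to 20.4 and 14.9 to 17.1 (log2 fold change -0.19, limma adjusted p = 0.585). SP5 was near 0 in all libraries, at 0.0413 to 0.0823, and these 3 genes were named for their promoters.

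The other genes of the pathway were counted from lists. Of 124 Wnt pathway genes in 6 lists, 116 were in the matrix and 63 had a mean of at least 1. Of these 63, 47 had a log2 fold change below 0, against 50% of all genes tested, and the median was -0.07. An unadjusted p under 0.05 was found in limma for 3, all lower, and for none that was higher, against 8.66% of all genes tested in either direction. No adjusted p was under 0.05. Without siR-GAL3 replicate 2 the median was -0.04, and 7 lower and 4 higher genes had an unadjusted p under 0.05, against 9.36% and 6.98% of all genes tested.

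Among ligands and their secretion, WNT7B, a ligand made by neural cells, was 1.20 ± 0.134 in siR-Con and 0.872 ± 0.0710 in siR-GAL3 (SD, n = 3 each), without overlap. Its log2 fold change was -0.23 (limma unadjusted p = 0.0112, adjusted p = 0.397), and 21 of the 25 genes of this list had a mean under 1. Among receptors and Dishevelled proteins, the receptor FZD3 and the adaptor DVL1 had log2 fold changes of -0.34 and -0.22 (limma unadjusted p = 0.0326 and 0.0448). Both were lowest in siR-GAL3 replicate 2, without which the log2 fold changes were -0.21 and -0.14, and the median of the 10 genes of this list went from -0.15 to -0.03. FZD3 touched between the groups in the first library set, at 1.94 in siR-Con replicate 1 and 1.95 in siR-GAL3 replicate 1. Of the secreted inhibitors, 4 were tested, and SOSTDC1 and DKK3 had the smallest p, with log2 fold changes of 0.34 and -0.11 (limma adjusted p = 0.595 and 0.612). SOSTDC1 was at 3.20 in siR-GAL3 replicate 2 and at 1.53 or less elsewhere. Without that library the log2 fold changes of SOSTDC1 and DKK3 were 0.08 and -0.07.

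In the rest of the destruction complex and its regulators, 23 genes were tested, 17 with a log2 fold change below 0, and none had an unadjusted p under 0.05 in limma. The smallest p belonged to the casein kinases CSNK1E and CSNK1A1, with log2 fold changes of -0.13 and -0.14 (limma unadjusted p = 0.0701 and 0.124), the latter -0.08 without siR-GAL3 replicate 2. CSNK1E lay between 5.89 and 6.24 in siR-Con and between 5.23 and 5.57 in siR-GAL3, without overlap. Its log2 fold change was -0.15 without siR-GAL3 replicate 2 (limma unadjusted p = 0.0177, adjusted p = 0.199). Of the 13 nuclear factors tested, 11 had a log2 fold change below 0 and none had an unadjusted p under 0.05 in limma. TLE1, a corepressor, was at 2.07 to 2.39 in siR-Con and 2.51 to 2.63 in siR-GAL3, and TCF7L1, a TCF factor that mainly represses, was at 1.76 to 1.93 and 1.57 to 1.61, so the pair lay apart in opposite directions. Of the 9 target genes tested, 6 had a log2 fold change below 0 and 3 above. NKD1 and MYC had the smallest p, and MYC was higher in siR-GAL3 without overlap, at 3.13 to 3.38 against 3.39 to 3.87 (log2 fold change 0.15, limma adjusted p = 0.585). The targets thus did not share a direction.

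**Figure D4:**
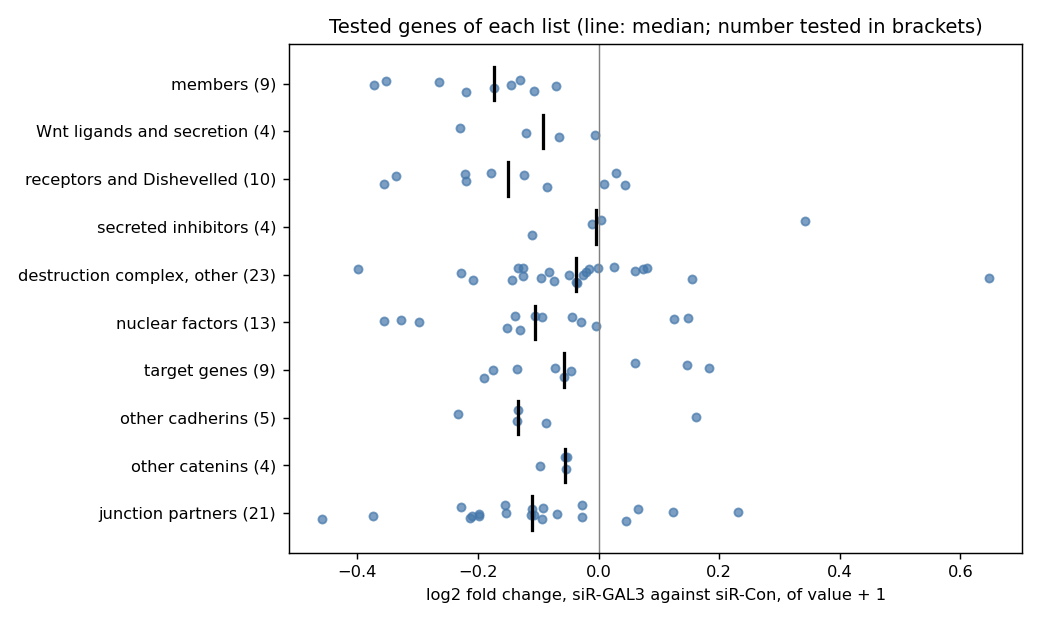
Log2 fold change (siR-GAL3 against siR-Con, of value + 1, all 6 libraries) of each tested gene of the members and of the 9 lists, with the median of each list as a line. The members' median was -0.17, and the medians of the lists lay between -0.15 for receptors, which was -0.03 without siR-GAL3 replicate 2, and 0.00 for secreted inhibitors.

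At the junction itself, 47 genes in 3 lists were looked up, and 30 of the 46 in the matrix were tested. A log2 fold change below 0 was found for 25, with a median of -0.10, against 50% of all genes tested. Without siR-GAL3 replicate 2 it was found for 17, with a median of -0.03, against 51.1%. An unadjusted p under 0.05 was found in limma for 3 lower genes and 1 higher gene, against 4.25% and 4.41% of all genes tested. Without that library there were 7 lower and 4 higher genes, against 9.36% and 6.98%. The 4 genes over all libraries were among the 21 junction partners tested, whose median turned from -0.11 to 0.02 without siR-GAL3 replicate 2. ACTN1, alpha-actinin, an actin crosslinker at junctions, was 2.91 ± 0.156 in siR-Con and 2.33 ± 0.0144 in siR-GAL3 (log2 fold change -0.23, limma unadjusted p = 0.00822, adjusted p = 0.356). NECTIN3, an adhesion molecule that works beside cadherins, was 2.93 ± 0.0568 in siR-Con and 2.40 ± 0.156 in siR-GAL3 (log2 fold change -0.21, limma unadjusted p = 0.0140). ENAH and VASP, related proteins that promote actin filament growth, went in opposite directions, with log2 fold changes of -0.37 and 0.23 (limma unadjusted p = 0.0389 and 0.00681, adjusted p = 0.545 and 0.333). VASP was at 2.63 to 2.81 in siR-Con and 3.29 to 3.48 in siR-GAL3, and ENAH was lowest in siR-GAL3 replicate 2, at 4.79, without which its log2 fold change was -0.21.

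Of the 17 other cadherins, 5 reached a mean of at least 1. CDH24 and CDH6 had the smallest p, with log2 fold changes of -0.13 and -0.23 (limma adjusted p = 0.577 and 0.585). CDH24 was at 1.13 to 1.33 in siR-Con and 1.00 to 1.05 in siR-GAL3, without overlap. Its log2 fold change was -0.14 without siR-GAL3 replicate 2 (limma unadjusted p = 0.0320, adjusted p = 0.258). CDH6 overlapped, with a log2 fold change of -0.12 without that library. Of the other catenins 4 were tested, and all had a log2 fold change below 0. JUP, plakoglobin, the closest relative of beta-catenin, was 1.67 ± 0.132 in siR-Con and 1.502 ± 0.193 in siR-GAL3 (SD, n = 3 each). The groups overlapped, and its log2 fold change was -0.10 (limma adjusted p = 0.629). Without siR-GAL3 replicate 2 it was -0.16 (limma unadjusted p = 0.0227, adjusted p = 0.219). CTNNAL1, alpha-catulin, had a log2 fold change of -0.05 (limma adjusted p = 0.705).

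Microglial markers were higher in siR-GAL3, with a summed level of 115 to 139 in siR-Con and 142 to 162 in siR-GAL3. Of 11 tested, 4 were higher at an unadjusted p under 0.05 in limma, against 4.41% of all genes tested. Without siR-GAL3 replicate 2 there were 5, against 6.98%. The most abundant, C1QC and C1QB, were 23.4% and 20.7% higher. Oligodendrocyte lineage markers summed to 1055 to 1126 in siR-Con and 1063 to 1385 in siR-GAL3, with none at an unadjusted p under 0.05 in limma. MBP, the most abundant, had a log2 fold change of 0.21 (limma adjusted p = 0.607). Endothelial markers summed to 1.24 to 1.34 and 1.22 to 1.32 and none reached a mean of at least 1, with CDH5 and EMCN the highest at 0.878 and 0.132 over all libraries. The part of these cell types in the values of the members was not tested.

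**Figure D5:**
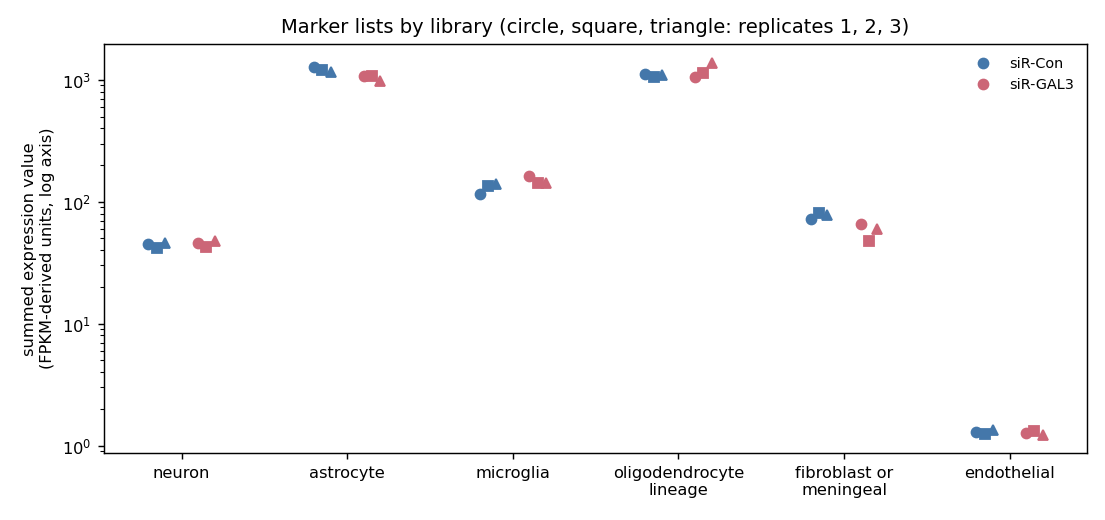
Summed expression value (FPKM-derived units, log axis) of the marker genes of each cell type in each library. The summed astrocyte and fibroblast or meningeal markers were lower and the summed microglial markers higher in siR-GAL3 without overlap. GFAP made up a large part of the astrocyte sum. The summed neuron markers overlapped at 41.4 to 47.2, while 3 of the 7 tested were higher without overlap, against 10.3% of all genes tested.

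The profile of CTNNB1 over the 6 libraries was compared with that of 2599 genes with a mean of at least 5, by the root mean square difference of their log2 values after each gene's own mean was subtracted. ABCE1, ACO1, FSTL1 and EIF4G2 were among the genes most like it, with differences of 0.0225 to 0.0311, against a median of 0.176 over all genes compared. Among the members CTNND2 was the nearest, at rank 39, followed by CTNND1 at rank 94 and CTNNA1 at rank 115. CDH2 was at rank 658, and APC and GSK3B were farther than the median gene. The genes most like CDH2 were SRPK2, RAD23B, CCNY, SBF1 and HNRNPUL2, with differences of 0.0165 to 0.0228. The nearest member to CDH2 was CTNND1, at rank 550. Every gene named in this comparison was lowest in siR-GAL3 replicate 2, so the ranks depend in part on that library. They were not computed without it.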

How the data were processed

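RNA of 6 libraries of cultured rat spinal cord neurons was analysed, 3 siR-Con and 3 siR-GAL3, each matched to its column by name. By the methods and the supplement, the authors aligned reads with STAR, counted them per gene with HTSeq and turned the counts into FPKM. Batch removal, standardization and a correction within groups followed. The tools of these last steps and the genome build are not given in the sources used here. The deposited expression values are linear, and 3.86% were below 0. They hold no counts, so depth is unknown. Libraries were made by poly-T capture in the supplement but by ribosomal depletion in the labels.

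Values below 0 were set to 0, which touched 24 of the genes tested, and log2(value + 1) was fitted by limma 3.58.1 (R 4.3.3), with a trend on intensity, for 8495 genes whose mean reached 1. Adjusted p-values are Benjamini-Hochberg values over all genes tested, and unadjusted p-values come from the same fit. The fit was tested on simulated data. Single values were compared with exact permutation tests in Python 3.11.15 with SciPy 1.17.1. The design had assumed FPKM, and the test was kept.

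The members and lists were chosen with earlier results of these data known. From each list, the text names up to 5 genes with an unadjusted p under 0.05 or else the 2 with the smallest p, from marker lists the 2 most abundant, and the 5 genes most like CTNNB1 and CDH2. Exceptions are stated, and some genes the rule names are not reported here. Promoter sequences are RefSeq's on GRCr8, used only for names and sequence, and all 10 members matched a symbol there. The block by library set was added after seeing the data.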

Additional observations from a re-analysis of the deposited data

How the results depend on the processing

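In no alternative did a member reach an adjusted p under 0.05. The log2 fold changes of 8 of the 9 tested members stayed below 0 in all alternatives that gave a value. The exception was CDH2, at 0.057 without siR-GAL3 replicate 2, at 0.058 in the fit blocked by library set, and between -0.15 and 0.06 with each library left out. The blocked fit takes no group difference from siR-GAL3 replicate 2, so it is no separate check. AXIN2 was -0.29 with a pseudocount of 0.1 against -0.15, since the pseudocount shrinks low genes. The log2 ratio of CDH2 to CDH11 lay between -0.022 and 0.27 with each library left out, with the value below 0 without siR-GAL3 replicate 3. Members with an unadjusted p under 0.05 numbered 2 in the main fit and 5 with no filter. They numbered 1 with a mean of at least 10, where fewer genes were tested, and 1 with the replicate block. With each library left out there were 1 to 3, with 1 without siR-Con replicate 2, siR-Con replicate 3 or siR-GAL3 replicate 3. Among all genes, 361 lower and 375 higher of 8495 had such a p in the main fit, and 736 and 887 of 17648 with no filter. There were 73 and 48 of 1120 with a mean of at least 10, and 251 and 292 of 8495 with the replicate block. With each library left out, 146 to 795 of 8495 were lower and 191 to 665 higher at that p. Wnt pathway genes with an unadjusted p under 0.05 numbered 3, against 13 with no filter, 0 with a mean of at least 10, 1 with the replicate block, 8 when blocked by library set and 1 to 11 with each library left out. Junction genes numbered 4, against 0 with a mean of at least 10, 2 with the replicate block, 9 when blocked by library set and 2 to 11 with each library left out. Of the fits that left out a library, the one without siR-GAL3 replicate 2 gave the highest count for both lists. Members without overlap numbered 4, and 4 to 9 with each library left out, with 9 without siR-GAL3 replicate 1 and 7 without siR-Con replicate 1. Groups of 3 and 2 libraries separate more easily than groups of 3 and 3. The share of all genes without overlap was not computed with a library left out, so these counts are not read as a result about the members. Apart from fewer genes or libraries, the cause of these shifts was not tested. Deviations of same-numbered libraries correlated at -0.17, -0.07 and 0.04, but values already corrected within groups cannot decide whether libraries were paired. Same-numbered libraries shared a library set for replicates 1 and 3 and not for replicate 2. The replicate block thus rests on the shared numbers. Scaling moved the median of all genes by less than 0.1. Ratios were not computed without log transformation, and overlap does not depend on the fit. Depth is unknown, so no counting error could be given.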

Other observations

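In a few genes of the pathway a single library decided the value, and these were picked after the values were seen. PPP2CA, a catalytic subunit of protein phosphatase 2A, was 4.58 in siR-Con replicate 1 and between 15.2 and 20.8 in the other 5 libraries. TCF7L2, a TCF factor found in the oligodendrocyte lineage, was 2.46 in siR-GAL3 replicate 2 and between 7.12 and 8.46 in the other libraries. Its log2 fold change was -0.33 over all libraries and 0.13 without siR-GAL3 replicate 2 (limma unadjusted p = 0.388 and 0.0489).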
